A study of Mus musculus with 8 samples.

Results

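The 10 genes described here encode the mitochondrial contact site and cristae organizing system (MICOS) and the outer membrane proteins it binds. They were chosen by name, as the rows called Immt, Chchd3, Chchd6, Minos1, 2410015M20Rik, Apoo, Apool, Samm50, Mtx1 and Mtx2 among the 49315 genes of each table. The data are RNA sequencing of immortalized mouse embryonic fibroblasts (MEFs), cells of the embryo's connective tissue that have been made to divide without limit. There were 4 libraries of cells labelled Opa1-/- and 4 libraries of Opa1-/- cells into which OPA1 had been reintroduced, labelled Opa1-/- + OPA1. Both groups therefore carry the Opa1 deletion, and wild-type cells were not analysed here. The sources used here do not say whether each line is 1 clone or how OPA1 was put back. The labels do not say that libraries of a group came from separate cultures, so p-values measure only how these libraries differ among themselves, and that spread may be technical.

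MICOS sits in the mitochondrial inner membrane at the narrow necks, the cristae junctions, where the folded cristae open into the space between the membranes. MIC60 (Immt) and MIC10 (Minos1) each organize a branch of the complex, and MIC60 reaches across to SAM50 (Samm50) and the metaxins in the outer membrane. OPA1, a dynamin-like GTPase of the same membrane, fuses inner membranes and also controls the width of cristae junctions.

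The sequences upstream of these genes are shown first for 2410015M20Rik, the member with the largest difference between the groups. They come from RefSeq (GRCm38.p6), which held a start for all 10 members and 2 starts each for Minos1 and Apoo. The stretch below covers the 250 bases before the start, chr17:56609772-56610021 on the minus strand, written 5′ to 3′. Capitals mark a match to ACTACANNT, the first letters of the motif bound by the zinc finger factor ZNF143.
2410015M20Rik: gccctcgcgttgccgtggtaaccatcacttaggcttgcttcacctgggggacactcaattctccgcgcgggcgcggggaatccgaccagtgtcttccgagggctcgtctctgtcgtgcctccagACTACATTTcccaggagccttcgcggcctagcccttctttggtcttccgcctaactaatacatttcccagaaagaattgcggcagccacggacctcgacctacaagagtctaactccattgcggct

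A second match in 2410015M20Rik lies just after the start, and the motif is also found before the starts of Chchd3 and Chchd6. Matches are given below with 8 bases on either side, at chr17:56609745-56609769, chr6:33060482-33060506, chr6:33060402-33060426 and chr6:89595689-89595713, all on the minus strand.
2410015M20Rik after the start: cagcgaccACTACATTTcccaggag
Chchd3 far: ctgtcaagACTACAACTcccagaat
Chchd3 near: ggatcgagACTACAATTcccattat
Chchd6: aatgctggACTACAAATcccacagg

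Samm50 and Mtx1 share a different motif at their starts, AANATGGCG of the factor YY1. It stands in capitals below, at chr15:84192241-84192265 on the plus strand and chr3:89213880-89213904 on the minus strand.
Samm50: ggtggtacAACATGGCGgcgctcgg
Mtx1: gagcgtacAAGATGGCGgcgcccat

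In windows from 250 bases before to 50 bases after the start, searched on both strands, ACTACANNT was found in 3 of 10 members and in 4.16% of all 32851 windows, and AANATGGCG in 2 members and 2.38% of windows. The ETS motif CCGGAAG was found in 5 members (Immt, Chchd3, Minos1, Mtx1 and Mtx2) and 8.86% of windows. The first letters of the NRF1 motif, GCGCNTGCG, were found in Immt and 6.31% of windows, and CCAAT in 5 members and 37.4% of windows. TGATGNAA, the site of ATF4 with a C/EBP partner, was found in no member's window and in 3.97% of all windows. Matches of different motifs did not overlap in the members. The ZNF143 letters were picked after these windows had been read, and a match is a stretch of letters and no evidence of binding. A link of any motif with the differences between the groups was not tested. Chchd3 and Chchd6, which carry the ZNF143 letters, were not called, as described below.

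Values below are TPM as deposited, a measure of transcript abundance that corrects for gene length and depth, scaled between libraries. A difference is Opa1-/- minus Opa1-/- + OPA1 on the log2(scaled TPM + 1) scale, which understates the change of low genes. The test was limma-trend, with p-values adjusted by Benjamini-Hochberg over all 14272 genes tested, and a gene is called at an adjusted p below 0.05. Opa1 was at 14.8, 14.7, 13.7 and 12.5 TPM in Opa1-/- libraries 1 to 4 and at 15.6, 14.6, 14.5 and 14.5 TPM in Opa1-/- + OPA1 libraries 1 to 4 (adjusted p = 0.306), so its total does not check the labels. Depth was 52.9 M to 57.8 M reads (M, 1000000) per library, estimated from the steps in the TPM values, and each member rested on 842 to 38829 reads. Of 9 fibroblast markers, 8 were tested, 5 were lower and 1 was higher in Opa1-/- cells, with summed levels of 2348 to 2630 TPM in Opa1-/- cells, against 2795 to 2823 TPM in Opa1-/- + OPA1 cells. Pdgfra, a fibroblast receptor, was under 1 TPM in every library. Of 4 epithelial markers, Cdh1 was tested and higher, and the list summed to 13.3 to 16.5 TPM in Opa1-/- cells, against 7.64 to 9.68 TPM in Opa1-/- + OPA1 cells. Of 4 macrophage markers, Cd14 was tested and lower, and the list summed to 35.1 to 49.4 TPM in Opa1-/- cells, against 52.2 to 58.5 TPM in Opa1-/- + OPA1 cells, with the defining genes Ptprc and Adgre1 near 0. All 4 endothelial markers averaged under 1 TPM, as did all 4 muscle markers, of which Myog was at 0 in every library. The part of these marker differences in the results below was not tested.

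All 10 members passed the filter on low values. The call was made for 3 of them, 2410015M20Rik, Mtx1 and Samm50, all higher in Opa1-/- cells, beside 33.0% of all genes tested called in either direction 16.3% called higher and 16.8% called lower. The share of members called was thus near that of all genes. The 4 Opa1-/- libraries did not overlap the 4 Opa1-/- + OPA1 libraries in these 3 members, beside 36.3% of all genes. The median difference of the members was 0.09, against 0.00 over all genes tested, and the median of their absolute differences was 0.12, against 0.16. In bulk RNA, fewer cells with a transcript and less of it in each cell cannot be told apart.

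**Figure D1:**
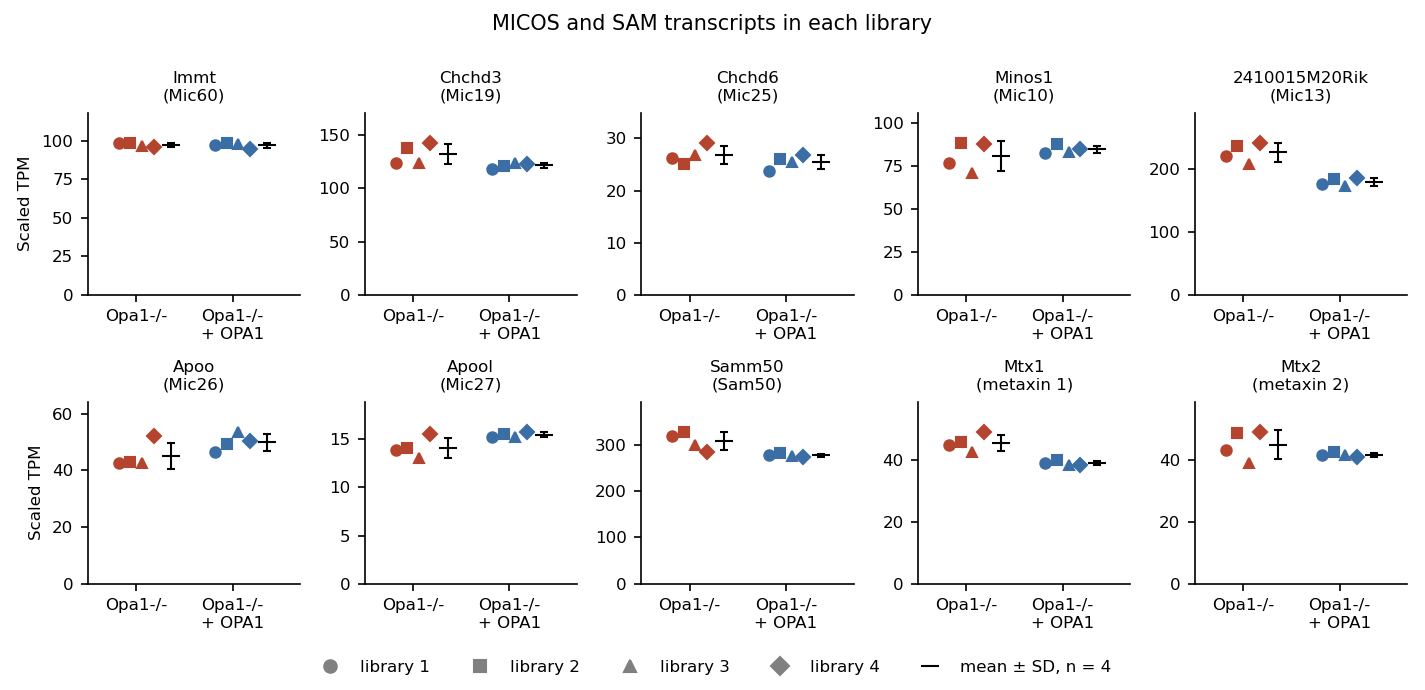
Scaled TPM (vertical axes, from 0) of each of the 10 genes in every library, Opa1-/- in red on the left and Opa1-/- + OPA1 in blue on the right, with symbols for library numbers and bars for mean ± SD (n = 4 each). In 2410015M20Rik, Samm50 and Mtx1 every Opa1-/- library lies above every Opa1-/- + OPA1 library, and the values of Immt lie between 94.5 and 98.4 TPM in all 8.

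Immt, which encodes MIC60, the anchor of the complex, was nearly level across all 8 libraries. The gene lies on GRCm38 chromosome 6, 71831331 to 71877388, plus strand. It was at 98.2, 98.4, 96.2 and 96.1 TPM in Opa1-/- libraries 1 to 4, against 96.9, 98.3, 98.0 and 94.5 TPM in Opa1-/- + OPA1 libraries 1 to 4. The groups overlapped, and the mean difference came to 0.00 (SE 0.03, adjusted p = 0.936). Its 95% confidence interval ran from -0.07 to 0.07, or folds of 0.955 to 1.05. The coefficient of variation over the 8 libraries was 1.44%, against a median of 11.5% over all genes tested, and 2 of 14272 genes had a smaller one. With the trend along exon length and GC content removed, described further on, Immt stood at 0.11. The steadiness also depends on the scaling, since on TPM as deposited the figure was 5.02%, and 469 genes varied less.

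Chchd3 and Chchd6 encode MIC19 and MIC25, related proteins of the intermembrane space that bind MIC60. Chchd3 (chromosome 6, 32790976 to 33060260, minus strand) was at 124, 138, 124 and 143 TPM in Opa1-/- libraries 1 to 4, against 119, 121, 124 and 122 TPM in Opa1-/- + OPA1 libraries 1 to 4. Opa1-/- libraries 2 and 4 stood above all others, and libraries 1 and 3 lay level with Opa1-/- + OPA1 library 3. The difference was 0.12 (SE 0.05, adjusted p = 0.112) and was not called. Chchd6 (chromosome 6, 89383146 to 89595652, minus strand) had 26.8 ± 1.67 TPM in Opa1-/- cells and 25.5 ± 1.29 TPM in Opa1-/- + OPA1 cells (SD, n = 4 each), with overlapping groups and an adjusted p of 0.361. Its share of the Chchd3 and Chchd6 sum was 16.9% ± 1.02 in Opa1-/- cells and 17.3% ± 0.579 in Opa1-/- + OPA1 cells, a difference smaller than the spread.

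On the MIC10 branch, 2410015M20Rik rose while Minos1, Apoo and Apool were not called. 2410015M20Rik encodes MIC13, also known as QIL1, which in human cells joins the MIC10 branch to MIC60. It lies on chromosome 17, 56607452 to 56609771, minus strand. It was at 220, 235, 207 and 240 TPM in Opa1-/- libraries 1 to 4, against 176, 183, 173 and 185 TPM in Opa1-/- + OPA1 libraries 1 to 4. Every Opa1-/- library was above every Opa1-/- + OPA1 library. Its level differed by 0.33 (SE 0.05, adjusted p = 0.00163), a fold of 1.26 with a 95% confidence interval of 1.16 to 1.36. The call held with each library left out in turn, and the difference then ran between 0.30 and 0.37.

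Minos1 encodes MIC10, the small hairpin protein that bends the membrane at the junction. It lies on chromosome 4, 139101814 to 139131113, minus strand. It was at 77.1, 88.5, 70.9 and 87.9 TPM in Opa1-/- libraries 1 to 4, against 83.0, 87.7, 83.5 and 85.1 TPM in Opa1-/- + OPA1 libraries 1 to 4. The Opa1-/- libraries spread to both sides of the others, and the difference was -0.07 (SE 0.07, adjusted p = 0.489). The ratio of 2410015M20Rik to Minos1, which no scaling of a library can change, was 2.79 ± 0.118 in Opa1-/- cells and 2.11 ± 0.0475 in Opa1-/- + OPA1 cells (SD, n = 4 each). It lay between 2.66 and 2.92 in the Opa1-/- libraries and between 2.07 and 2.18 in the Opa1-/- + OPA1 libraries, without overlap. The ratio still carries the trends with chromosome and exon length described further on. With chromosome medians removed, 2410015M20Rik stood at 0.32 and Minos1 at 0.08. With the length and GC trend removed as well, 2410015M20Rik stood at 0.26 and Minos1 at 0.07.

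Apoo and Apool encode MIC26 and MIC27, paired proteins of the apolipoprotein O family, and both genes are X-linked. Apoo (chromosome X, 94367117 to 94417093, plus strand) was at 42.4, 43.1, 42.5 and 52.1 TPM in Opa1-/- libraries 1 to 4, against 46.3, 49.4, 53.6 and 50.3 TPM in Opa1-/- + OPA1 libraries 1 to 4. Opa1-/- library 4 stood apart from the other 3, which lay below every Opa1-/- + OPA1 library. The difference was -0.15 (SE 0.07, adjusted p = 0.153). Apool (chromosome X, 112311334 to 112372755, plus strand) was at 13.9, 14.1, 13.1 and 15.6 TPM in Opa1-/- libraries 1 to 4, against 15.3, 15.6, 15.2 and 15.8 TPM in Opa1-/- + OPA1 libraries 1 to 4. It had the same layout, with library 4 alone reaching the other group, and a difference of -0.12 (SE 0.06, adjusted p = 0.123).

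Without Opa1-/- library 4, both genes passed the test as lower, Apoo at -0.22 (adjusted p = 0.00795) and Apool at -0.17 (adjusted p = 0.0121). That fit called 5 of the 10 members, beside 37.5% of all genes tested. The share of Apool in the Apoo and Apool sum was 23.9% ± 0.788 in Opa1-/- cells and 23.7% ± 1.10 in Opa1-/- + OPA1 cells, so the pair kept its proportion within the spread. Of the 50-base words in annotated Apoo transcripts, 41.2% recur in the pseudogene Apoo-ps, which was listed at 1.73 TPM in Opa1-/- cells and 2.06 TPM in Opa1-/- + OPA1 cells. The sources do not say how reads were divided between the 2 copies, so the values of Apoo are uncertain to that extent.

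Of the outer membrane genes, Mtx1 and Samm50 rose and Mtx2 was not called. Samm50 encodes SAM50, the barrel protein that inserts other barrel proteins into the outer membrane and that MIC60 contacts. It lies on chromosome 15, 84192241 to 84217267, plus strand. It was at 318, 328, 300 and 285 TPM in Opa1-/- libraries 1 to 4, against 277, 282, 275 and 274 TPM in Opa1-/- + OPA1 libraries 1 to 4. The groups did not overlap, though Opa1-/- library 4 lay close to Opa1-/- + OPA1 library 2. The difference was 0.15 (SE 0.05, adjusted p = 0.0364), a fold of 1.11 with a 95% confidence interval of 1.03 to 1.19. The call was lost when any 1 of 7 libraries was left out. The adjusted p was 0.0954, 0.0875 and 0.0507 without Opa1-/- libraries 1, 2 and 3, and 0.0853, 0.0694, 0.103 and 0.0966 without Opa1-/- + OPA1 libraries 1 to 4. Without Opa1-/- library 4 it was 0.00394.

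Mtx1 encodes metaxin 1, a SAM subunit on the cytosolic face of the outer membrane. It lies on chromosome 3, 89209081 to 89227088, minus strand. It was at 45.0, 45.8, 42.8 and 49.2 TPM in Opa1-/- libraries 1 to 4, against 39.2, 40.0, 38.5 and 38.6 TPM in Opa1-/- + OPA1 libraries 1 to 4. The groups did not overlap, and the difference of 0.22 (SE 0.05, adjusted p = 0.00695) was called with each library left out. On the opposite strand, exons of Thbs3, which encodes thrombospondin 3, overlap 8.87% of the Mtx1 exon bases and those of Gm43737 overlap 21.2%. Thbs3 was at 20.6 TPM in Opa1-/- cells and 19.6 TPM in Opa1-/- + OPA1 cells (adjusted p = 0.483), and Gm43737 at 4.51 TPM in Opa1-/- cells and 4.05 TPM in Opa1-/- + OPA1 cells (adjusted p = 0.366). The sources do not say whether the counting used strand, so reads in the shared stretches cannot be told apart. Smaller overlaps were annotated for Immt with Gm44771 (185 bases) and Samm50 with Gm49513 (111 bases).

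Mtx2 encodes metaxin 2, the partner of metaxin 1. It lies on chromosome 2, 74825803 to 74878431, plus strand. It was at 43.3, 48.7, 39.0 and 49.1 TPM in Opa1-/- libraries 1 to 4, against 41.7, 42.7, 41.6 and 40.9 TPM in Opa1-/- + OPA1 libraries 1 to 4. Opa1-/- library 3 lay below all of the other group and the remaining 3 above it. The difference was 0.10 (SE 0.07, adjusted p = 0.303), and without Opa1-/- library 3 it was 0.17 (adjusted p = 0.0409). The ratio of Mtx1 to Mtx2 was 1.02 ± 0.0662 in Opa1-/- cells and 0.938 ± 0.00809 in Opa1-/- + OPA1 cells, and the ranges overlapped.

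Ratios to Immt within a library gave the same 3 genes without overlap between the groups as the scaled values did. Scaled Immt was nearly level, so these ratios largely repeat the scaled values and are no separate check. They also carry the trend with exon length described further on. The share of all genes whose ratio to Immt did not overlap was not computed. The ratio of 2410015M20Rik to Immt was 2.32 ± 0.155 in Opa1-/- cells and 1.85 ± 0.0850 in Opa1-/- + OPA1 cells. For Samm50 it was 3.16 ± 0.159 in Opa1-/- cells and 2.86 ± 0.0391 in Opa1-/- + OPA1 cells. For Mtx1 it was 0.470 ± 0.0292 in Opa1-/- cells and 0.403 ± 0.00721 in Opa1-/- + OPA1 cells (SD, n = 4 each). The 7 MICOS transcripts summed to 602, 642, 581 and 664 TPM in Opa1-/- libraries 1 to 4, against 559, 582, 572 and 580 TPM in Opa1-/- + OPA1 libraries 1 to 4. The 2 sets of sums overlapped in Opa1-/- library 3, and 2410015M20Rik was the largest part of each sum.

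The differences of the members changed once trends with chromosome or exon length, seen across all genes, were removed. X-linked genes had a median difference of -0.36 over 301 genes, and chromosome 4 genes, Minos1 among them, one of -0.15. With the median of each chromosome removed, the differences of all 10 members were above 0. Apool then passed as higher at 0.22 (adjusted p = 0.0185), and Apoo stood at 0.20 (adjusted p = 0.0802). Minos1 stood at 0.08 (adjusted p = 0.414) and Chchd3 passed at 0.15 (adjusted p = 0.0493), while Samm50 fell short at 0.12 (adjusted p = 0.0521). In that fit 4 members were called, beside 26.5% of all genes tested.

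Exon length differed widely between members, from 1169 bases in 2410015M20Rik to 11353 in Immt, against a median of 3710 over all genes tested. Across 9406 genes, the difference between the groups fell with exon length (Spearman's rho -0.21, a description across genes that are not independent replicates). Deviations of the libraries from their group means followed length with a rho of -0.46 in Opa1-/- library 4 and of 0.47 in Opa1-/- library 3. With each library's trend along length and GC content removed and the library number as a block, 2410015M20Rik was at 0.27 (adjusted p = 0.0016) and Samm50 at 0.20 (adjusted p = 0.00634). Mtx1 lost its call at 0.16 (adjusted p = 0.0541). Chchd3 passed at 0.13 (adjusted p = 0.0495) and Apoo passed as lower at -0.19 (adjusted p = 0.0266), while Immt stood at 0.11 (adjusted p = 0.0799). Without the block Immt passed as higher, at 0.11 (adjusted p = 0.0476), and so it did with chromosome medians removed as well (0.11, adjusted p = 0.031). The fit with the length and GC trend removed and the block called 4 members, beside 36.3% of all genes tested. 2410015M20Rik was called in the fit of the scaled values, with chromosome medians removed, and in each fit with the length and GC trend removed.

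**Figure D2:**
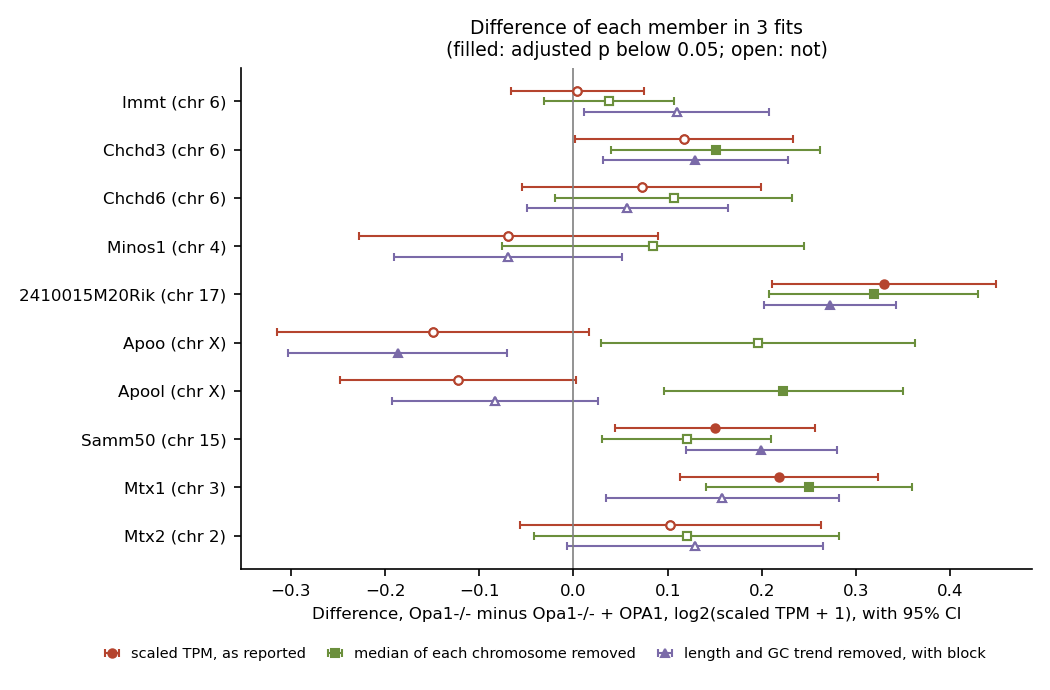
Difference of each member, Opa1-/- minus Opa1-/- + OPA1, on the log2(scaled TPM + 1) scale with its 95% confidence interval (horizontal axis), in the fit of the scaled values, with chromosome medians removed, and with the length and GC trend removed and the library number as a block. 2410015M20Rik is called in all 3 fits, and the X-linked Apoo and Apool change sign when chromosome medians are removed.

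The members varied more among the Opa1-/- libraries than among the Opa1-/- + OPA1 libraries. The coefficient of variation was larger in Opa1-/- cells for 9 of the 10 genes, all but Immt, with medians of 6.93% in Opa1-/- cells and 1.87% in Opa1-/- + OPA1 cells. Over all genes tested the medians were 9.42% in Opa1-/- cells and 5.26% in Opa1-/- + OPA1 cells, so the direction was that of the whole table. In Opa1-/- library 3, 9 members lay below their group mean, down to -0.20 for Mtx2. In Opa1-/- library 4, 8 members lay above it, up to 0.21 for Apoo, and the 2 below it were Samm50 and Immt, the members with the longest exons.

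Over the 45 pairs of members, the median Pearson r across the 8 libraries was 0.17, and 0.49 once group means were removed, with 34 pairs above 0. The closest pair within groups was Minos1 and Mtx2 (r 0.98), and Samm50 ran against Chchd6 (r -0.74) and Apoo (r -0.70). These libraries share depth, scaling and the trend with length, so the values describe them and are not tested.

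**Figure D3:**
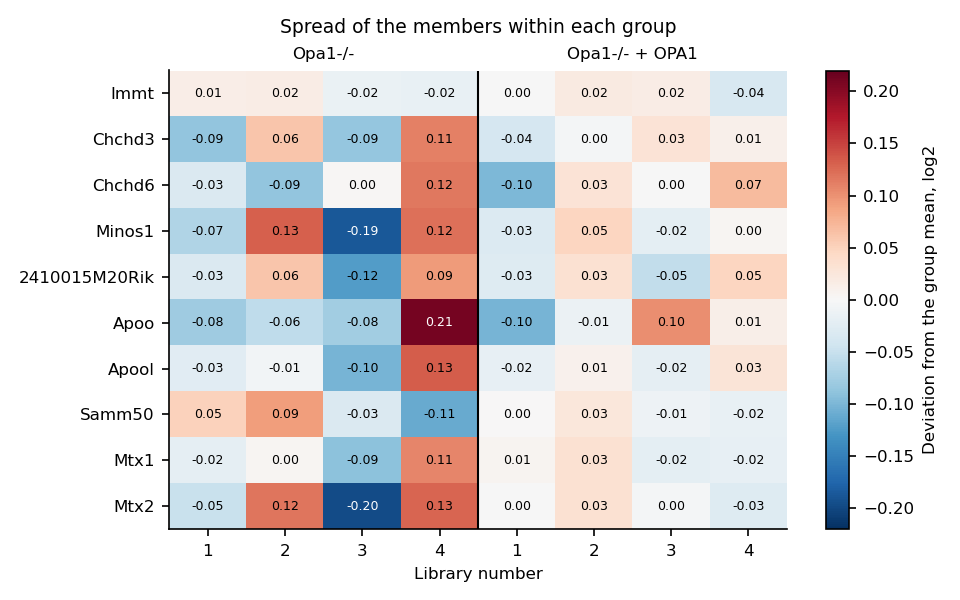
Deviation of each member from its group mean in each library, on the log2(scaled TPM + 1) scale (colour), with Opa1-/- libraries 1 to 4 on the left and Opa1-/- + OPA1 libraries 1 to 4 on the right. Opa1-/- library 3 is low in 9 members and Opa1-/- library 4 high in 8, whereas deviations in the Opa1-/- + OPA1 libraries lie between -0.10 and 0.10.

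In level, the members spanned from Samm50, with a mean of 292 TPM over the 8 libraries, to Apool with 14.8 TPM. Between them came 2410015M20Rik at 202 TPM, Chchd3 at 127 TPM, Immt at 97.1 TPM and Minos1 at 83.0 TPM, none of whose ranges overlapped their neighbours' in this order. Apoo at 47.5 TPM, Mtx2 at 43.4 TPM and Mtx1 at 42.4 TPM overlapped from each to the next, and Chchd6 was at 26.1 TPM. TPM divides by exon length, and the files' levels follow the length of all annotated exons of a gene. For Immt these add up to 11353 bases, while its principal transcript has 2728. Dividing the same reads by the principal transcript's length instead, on the same scale, put Immt at 404, beside 414 for Samm50, 313 for 2410015M20Rik and 238 for Chchd3. By that measure Immt was second, behind Samm50, and Samm50 and Apool alone held their place. Reads outside the principal transcript were not removed, which raises genes with much exon outside it, Immt most. The values thus show how far the order depends on the length used, and are not levels of the principal transcripts. Rescaling by another length leaves the ratio of the group means of a gene unchanged. The fits with the length and GC trend removed do depend on the length chosen. They used the length of all annotated exons and were not rerun with that of the principal transcript, which bears on Immt most.

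**Figure D4:**
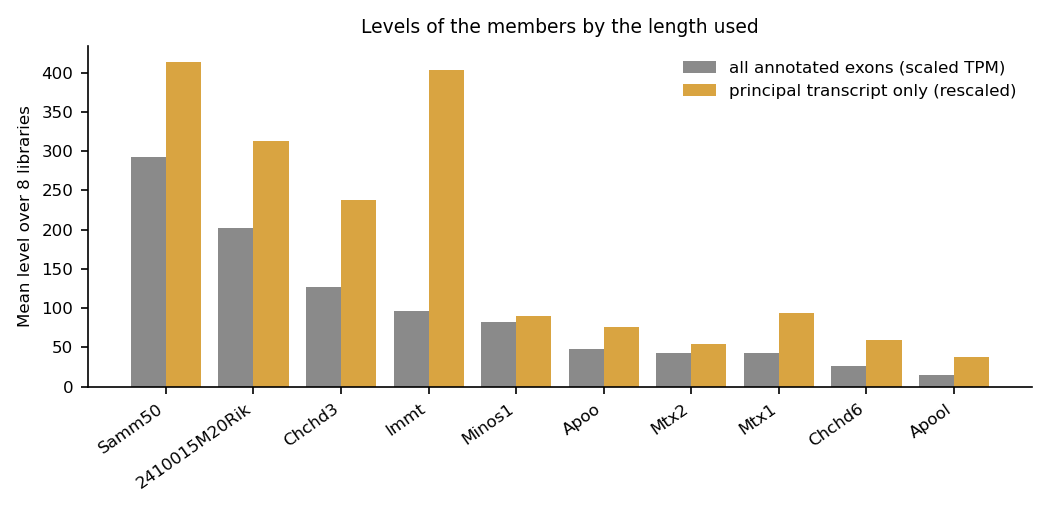
Mean level of each member over the 8 libraries, as scaled TPM with the length of all annotated exons (grey) and recomputed with the length of the principal transcript (yellow), both on a linear axis from 0. Immt is at 97.1 by the first and 404 by the second, which divides all reads of the gene by the principal transcript's length.

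The genes whose pattern over the 8 libraries was most like that of Immt were Cyth1 (r 0.91), Fam60a (r 0.88) and Nfxl1 (r 0.88), none of them called. Those most like 2410015M20Rik were Prr13 (r 0.996), Tmem128 (r 0.995) and Uqcrq (r 0.994). Uqcrq, a subunit of respiratory complex III, was at 236 ± 24.9 TPM in Opa1-/- cells and 153 ± 5.41 TPM in Opa1-/- + OPA1 cells (SD, n = 4 each). These r values were picked as the highest among the genes tested, over 8 libraries, and were not tested. The pattern of Immt is a variation of 1.44% that depends on the scaling. That of 2410015M20Rik holds the difference between the groups, and 36.3% of all genes did not overlap between them.

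Of 23 tested genes that shape cristae outside MICOS, 4 rose and 3 fell in Opa1-/- cells, with a median difference of 0.03. These calls make up 30.4% of the list, near the 33.0% of all genes tested, and the shares called in the related lists below are read against that figure and against 16.3% higher and 16.8% lower. Chchd10, a small intermembrane space protein mutated in human motor neuron disease and reported to bind MICOS, had the largest difference. It was at 12.8, 14.0, 11.1 and 14.1 TPM in Opa1-/- libraries 1 to 4, against 3.01, 3.79, 2.71 and 2.46 TPM in Opa1-/- + OPA1 libraries 1 to 4. All Opa1-/- libraries lay far above the others, and the difference was 1.82 (SE 0.11, adjusted p = 1.57e-05). Its relative Chchd2 was at 387 ± 43.0 TPM in Opa1-/- cells and 344 ± 8.50 TPM in Opa1-/- + OPA1 cells (adjusted p = 0.117).

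Dnajc11, a J-domain protein found with MICOS and SAM, fell to 21.3 ± 0.494 TPM in Opa1-/- cells, against 26.0 ± 0.268 TPM in Opa1-/- + OPA1 cells (-0.28, SE 0.04, adjusted p = 0.000645). The gene lies on chromosome 4, and with chromosome medians removed it stood at -0.12 (adjusted p = 0.0411). Mtx3, another metaxin, rose to 15.0 ± 0.917 TPM in Opa1-/- cells, against 12.4 ± 0.268 TPM in Opa1-/- + OPA1 cells (0.26, SE 0.05, adjusted p = 0.00553). Atad3a, an inner membrane ATPase on chromosome 4 like Dnajc11, fell by 0.23 (adjusted p = 0.00124), and by 0.08 with chromosome medians removed, where it was not called (adjusted p = 0.145). Outside the naming rule, and so named after their values were seen, Ghitm (0.15) rose and Afg3l2 (-0.14) fell. The Ghitm call was lost without Opa1-/- + OPA1 library 3 (adjusted p = 0.0565). The Afg3l2 call was lost without Opa1-/- library 1 or 3, or any 1 of the Opa1-/- + OPA1 libraries, with adjusted p between 0.0594 and 0.125. With chromosome medians removed Ghitm stood at 0.32 (adjusted p = 0.000429) and Afg3l2 at -0.11 (adjusted p = 0.0654).

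ATP synthase dimers bend the crista rims, and 4 of 13 genes for its membrane and stalk subunits rose while none fell, with a median difference of 0.19. The share called, 30.8%, was near the 33.0% of all genes tested. All of these calls were higher, beside 16.3% of all genes called higher and 16.8% called lower. The list was not tested as a set. Atp5g2, of the proton-carrying ring, was at 197 ± 8.02 TPM in Opa1-/- cells and 175 ± 4.41 TPM in Opa1-/- + OPA1 cells (0.17, SE 0.04, adjusted p = 0.0107). With the length and GC trend removed and the block it was at 0.05 (adjusted p = 0.264), and with chromosome medians removed at 0.14 (adjusted p = 0.0374). Atp5g1 of the same ring rose by 0.23 (adjusted p = 0.0166), and at 0.0523 did not pass without Opa1-/- + OPA1 library 1. Atp5l and Atp5j2, of the part that joins dimers, were each at 0.28 (adjusted p = 0.0433 and 0.0443). Both calls were lost without Opa1-/- library 2 or 4 or any 1 of the Opa1-/- + OPA1 libraries, and that of Atp5j2 also without Opa1-/- library 1, with adjusted p between 0.0591 and 0.114. With chromosome medians removed, Atp5l (0.18, adjusted p = 0.182), Atp5j2 (0.22, adjusted p = 0.122) and Atp5g1 (0.19, adjusted p = 0.056) were not called. With the length and GC trend removed and the block they were called, Atp5l at 0.36 (adjusted p = 0.00577), Atp5j2 at 0.30 (adjusted p = 0.0114) and Atp5g1 at 0.28 (adjusted p = 0.011).

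Of 19 genes for import across the outer membrane and into the intermembrane space, 2 rose and 4 fell, with a median difference of -0.01. The share called, 31.6%, was near the 33.0% of all genes tested. Chchd4 (MIA40), which oxidizes CHCH-domain proteins such as MIC19 as they enter, fell to 18.2 ± 0.661 TPM in Opa1-/- cells, against 21.1 ± 0.661 TPM in Opa1-/- + OPA1 cells (-0.20, SE 0.04, adjusted p = 0.00791). Its partner Aifm1 fell by 0.39 (adjusted p = 0.000192) and Timm8a1, a small chaperone, by 0.33 (adjusted p = 0.00133). Both are X-linked, and with chromosome medians removed Aifm1 stood at -0.04 (adjusted p = 0.45) and Timm8a1 at 0.02 (adjusted p = 0.808). Tomm7, a small subunit of the entry pore, rose by 0.29 (adjusted p = 0.0308). Its call was lost without Opa1-/- library 2 or any 1 of the Opa1-/- + OPA1 libraries, with adjusted p between 0.0572 and 0.0828. Also called, and named after their values were seen, were the receptor Tomm20 (-0.19) and the chaperone Timm13 (0.19). Genes of chromosome 8, where Tomm20 lies, had a median difference of -0.18, and with chromosome medians removed Tomm20 stood at -0.01 (adjusted p = 0.927). Tomm7 (0.23, adjusted p = 0.0935) and Timm13 (0.15, adjusted p = 0.0703) were not called in that fit either. The Timm13 call was also lost without Opa1-/- library 1 or 2, or Opa1-/- + OPA1 library 1, 3 or 4, with adjusted p between 0.0646 and 0.0997.

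Cardiolipin is the lipid of the inner membrane to which both OPA1 and MIC27 bind. Of 13 genes for its synthesis and transfer, 3 rose and none fell, with a median difference of 0.09. The share called, 23.1%, all of it higher, stood beside 33.0% of all genes tested called in either direction and 16.3% called higher. Nme4, a kinase that carries cardiolipin between the membranes, was at 85.2 ± 8.63 TPM in Opa1-/- cells and 56.2 ± 2.47 TPM in Opa1-/- + OPA1 cells (0.59, SE 0.07, adjusted p = 0.00038). Pla2g6, a phospholipase, rose by 0.36 (adjusted p = 0.000991). Triap1, which helps carry phosphatidic acid across, rose by 0.20 (adjusted p = 0.0192). The Triap1 call was lost without Opa1-/- library 1 or Opa1-/- + OPA1 library 1, 3 or 4, with adjusted p between 0.0512 and 0.0605, and with chromosome medians removed (adjusted p = 0.0705).

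**Figure D5:**
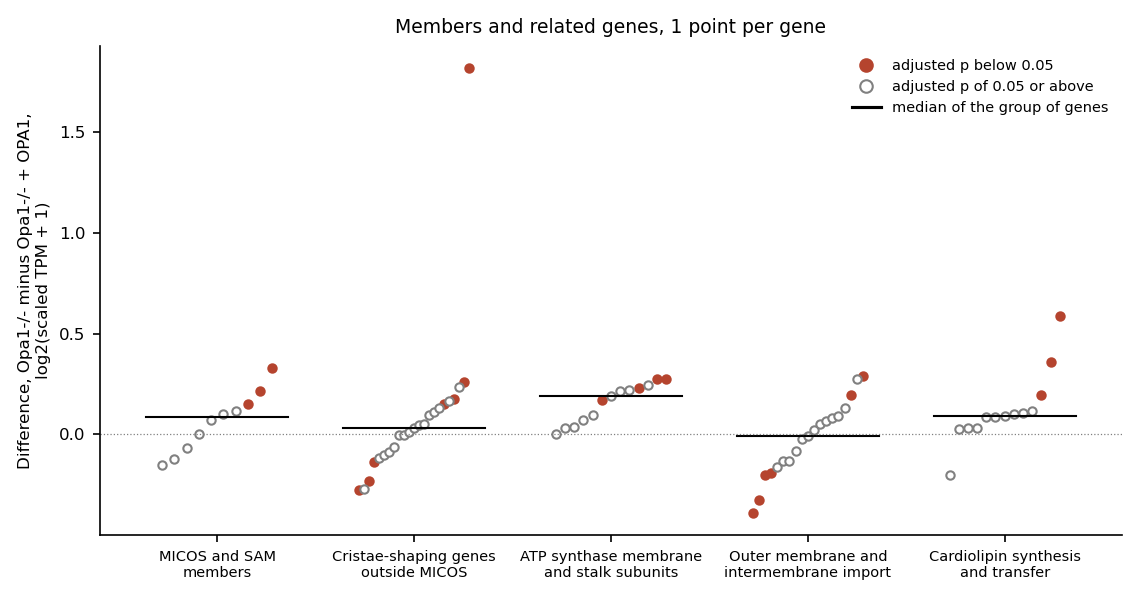
Difference, Opa1-/- minus Opa1-/- + OPA1, on the log2(scaled TPM + 1) scale (vertical axis) for the 10 members and for each tested gene of the 4 related lists, 1 point per gene, filled where the adjusted p is below 0.05, with a line at each median. Chchd10 at 1.82 lies above every other point, and the members lie between -0.15 and 0.33.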

How the data were processed

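The authors deposited TPM values for 49315 genes per library, per the file headers, each summing to 1000000. The submitters' processing notes name bcl2fastq 2.17, STAR 2.5.2b, featureCounts and Subread 1.5.2, and the builds mm10 and GRCh38 with no role given; the sources do not give strandedness. The identifiers are mouse, and 49056 were found in GENCODE M21 (GRCm38), the source of positions, exon lengths and GC content.

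Scaling between libraries used the trimmed mean of the log ratios, without weights, dropping 30% of the ratios and 5% of the levels at either end. The 14272 genes that reached 1 TPM in 4 or more libraries were tested with limma 3.58.1 (R 4.3.3) on log2(scaled TPM + 1), two-sided, with a trend. In a test on simulated data, the share of genes changed 4-fold that were called first fell short of the share required, and the requirement was then limited to genes well above the pseudocount. Reads were recovered from TPM times exon length, of which 94.6% to 94.8% of low values were whole within 0.05 of a read. No library pair agreed within sampling noise (lowest chi-square per degree of freedom 4.72). Other steps used Python 3.11.15, pandas 2.3.3 and matplotlib 3.10.9.

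The labels number the libraries 1 to 4 in both groups without saying what a number stands for. Deviations of same-numbered libraries from their group means correlated at 0.246, 0.225, 0.317 and 0.119, all above 0.1. Pairs with different numbers ran from -0.32 to 0.114, the highest being Opa1-/- library 3 with Opa1-/- + OPA1 library 4. The cut of 0.1 thus does not set the pair numbered 4 apart. The numbers were treated as a possible pairing, with that limit. Differences, intervals and p-values come from fits without the block unless it is named, and a fit with the number as a block was run beside the unblocked one.

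Named genes are the members, Opa1, up to 4 called genes of each related list with the largest absolute difference, the 3 genes most like Immt and 2410015M20Rik by Pearson r (Gm-numbered names left out), and genes whose exons overlap a member's. The values of 1 called gene of a related list are not reported here. The members, lists and tests were chosen with earlier results of these data known. Alternatives were other scalings, filters and pseudocounts, limma-voom on recovered reads, the block, length and GC content, chromosome medians, protein-coding genes only, and libraries left out.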

Additional observations from a re-analysis of the deposited data

Results flagged for a closer look

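In 4 of the 52 groups of 4 libraries looked at, 1 library stood far from the other 3, past Dixon's 95% limit for the gap as a part of the group's range. Chance gives about 5% of groups. Apoo in Opa1-/- library 4 was at 52.1 TPM, with a gap of 0.928 of the range. Opa1 in Opa1-/- + OPA1 library 1 was at 15.6 TPM, with a gap of 0.958. Mtx3 in Opa1-/- library 2 was at 13.7 TPM, with a gap of 0.837, and Chchd4 in Opa1-/- library 1 at 17.3 TPM, with a gap of 0.89.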

How the results depend on the processing

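Over 24 alternatives, 202 of 240 member values kept their direction and side of the threshold, 11 newly passed it, 16 no longer did and 11 changed sign. 2410015M20Rik passed in 23 and Mtx1 in 22. The replicate block alone changed no member's call (2410015M20Rik adjusted p = 0.00191, Mtx1 0.0154, Samm50 0.033), and calls over all genes numbered 4757 with it, against 4714.

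Libraries numbered 3 and 4 alone gave 626 calls and 0 of 10 members, where 2410015M20Rik was at 0.32 (adjusted p = 0.129); that fit holds 4 of the 8 libraries. Members called without 1 library numbered 2 to 5, and calls over all genes 3540 to 5437. The highest of these, without Opa1-/- library 4, was 37.5% of the genes tested in that fit. With the length and GC trend removed and no block, 6 members were called, and 6 also with chromosome medians removed as well. Calls over all genes in each of these fits were at most 5185 of 14272 tested (36.3%). The 5185 calls are those of the fit with the length and GC trend removed and the block. They were the highest number in any alternative other than leaving out 1 library. The shares of all genes called in the fits that called 6 members are not given here, so that count is not read as a result about the members. The fit with both removed was chosen after seeing the data. So were the length of the principal transcript and the scalings behind the steadiness of Immt.

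Sign changes were few. Immt, at 0.00, was at -0.0135 by median of ratios, at -0.0039 in libraries numbered 3 and 4, and between -0.0099 and 0.0091 without 1 library. It passed as higher in 2 alternatives, with the length and GC trend removed (0.11, adjusted p = 0.0476) and with chromosome medians removed as well (0.11, adjusted p = 0.031). With chromosome medians removed Minos1 was at 0.0844, Apoo at 0.196, Apool at 0.2227 and Timm8a1 at 0.0184, and with the length trend removed too, Minos1 was at 0.0726, Apoo at 0.1295 and Apool at 0.233. Samm50 was also lost on TPM as deposited (adjusted p = 0.132), by median of ratios (0.0846) and with no filter (0.0701).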
